A study of Mus musculus with 6 samples.

Results

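The MS4A genes encode small proteins that cross the cell membrane 4 times, and most are known from leukocytes. The 9 genes described here are Ms4a1, Ms4a2, Ms4a4b, Ms4a4c, Ms4a4d, Ms4a6b, Ms4a6c, Ms4a6d and Ms4a7, out of 27343 gene names on the array. They were chosen by gene name as a set, with their differences between the genotypes in these same arrays already known. Those differences are therefore given as a description, with no test of the members. All 18 non-control probes carrying these names were read on all 6 arrays.

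The study compared the spinal cord of Dhtkd1 null mice with that of wild-type mice. Dhtkd1 encodes a mitochondrial dehydrogenase of lysine breakdown, and the labels do not say which part of the gene was deleted. Both groups held 3 samples each of male C57BL/6 mice aged 8 weeks, raised free of specific pathogens, and no other allele or treatment is named for either group. Total RNA was labelled with Cy3 and hybridised to Agilent 1-colour arrays. The labels number the replicates without saying that each is a separate animal, so p-values measure the spread between these samples.

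MS4A1 is CD20 of B cells, and MS4A2 is the beta chain of the high-affinity IgE receptor of mast cells and basophils. The mouse MS4A4 and MS4A6 groups grew by local duplication and lie side by side in one gene cluster, with members found in T cells, monocytes and macrophages. MS4A7 is used as a marker of the macrophages at the borders of the nervous system, in the meninges and around vessels. In pieces of whole tissue, fewer cells of a type and less RNA per cell cannot be told apart.

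Signals are log2 of the processed spot intensity minus the array's 75th percentile, so 0 is the level of that percentile and negative values are dimmer. The 75th percentile lay between 952 and 1057 intensity units, and the scanner software called 78.4% to 82% of spots well above background. Wild-type 2 and all 3 null arrays shared one slide (slide 1), and wild-type 1 and 3 shared the other (slide 2). Both Dhtkd1 probes were lower in the null arrays, by a log2 difference of -1.08 and -1.07, with no overlap between the groups, and both were well above background on all 6 arrays. All 17 of 17 marker genes of spinal cord cells were well above background on all 6 arrays. No gene of 21439 tested passed an adjusted p of 0.05 in limma (0%), and 1908 had an unadjusted p under 0.05.

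Of the 18 probes, 16 had a position on chromosome 19 in the scanner files (mouse build mm9), and 5 of these covered more than 60 bases of genome with a 60-base probe, as a probe across a splice junction does. The probes of Ms4a4c are shown because that gene separated the genotypes on one of them and not on the other. The first lies at chr19:11500754-11500813 on the plus strand, and the second had no position.
Ms4a4c, A_52_P393488: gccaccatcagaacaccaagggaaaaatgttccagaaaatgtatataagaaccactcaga
Ms4a4c, A_51_P302977: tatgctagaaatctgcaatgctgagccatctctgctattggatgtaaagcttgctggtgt

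Probes of neighbouring duplicates can hold the same letters, and the next probes are shown for that reason. A Ms4a4b probe (chr19:11529252-11532335, plus strand) and a Ms4a4d probe (chr19:11627340-11629316, plus strand) shared a run of 16 bases, in capitals. It was the longest run shared by probes of different members, of which the next was 11 bases.
Ms4a4b, A_51_P136289: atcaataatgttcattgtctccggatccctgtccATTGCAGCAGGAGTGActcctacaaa
Ms4a4d, A_51_P294505: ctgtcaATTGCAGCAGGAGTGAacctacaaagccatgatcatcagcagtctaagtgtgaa

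The Ms4a7 probes shared 35 of their 60 bases, in capitals, so they do not measure the transcript independently. They lie at chr19:11396026-11396801 and chr19:11396004-11396063, both on the minus strand.
Ms4a7, A_51_P277216: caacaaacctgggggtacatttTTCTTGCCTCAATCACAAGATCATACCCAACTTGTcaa
Ms4a7, A_52_P59124: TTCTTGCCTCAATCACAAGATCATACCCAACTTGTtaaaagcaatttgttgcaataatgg

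The probes of Ms4a6c and Ms4a6d are shown because both genes had high signals on the same 3 arrays. These probes shared at most 5 bases in a row, but no probe was compared with the transcript of the other gene. They lie at chr19:11545580-11545639 on the plus strand and chr19:11664532-11664591 on the minus strand.
Ms4a6c, A_51_P193146: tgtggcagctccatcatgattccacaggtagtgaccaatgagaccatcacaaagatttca
Ms4a6d, A_52_P635388: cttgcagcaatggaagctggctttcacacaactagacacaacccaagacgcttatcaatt

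Of the 18 probes, 13 were well above background on all 6 arrays and 2 on none. The filter asked for 3 or more arrays well above background and left 14 probes, 9 with a higher and 5 with a lower mean in the null arrays. Each gene was represented by its brightest kept probe. On that basis 8 of the 9 members entered the fit over all genes, all but Ms4a2, and 5 had a higher and 3 a lower mean in the null arrays. Their median log2 difference was 0.51, against 0.02 over all genes tested. The null arrays all lay above the wild-type arrays for 1 member, Ms4a4c, as they did for 9.42% of all genes tested. They all lay below for 1 member, Ms4a1, as they did for 5.28% of all genes tested. Nothing is read from these counts, since the contrast was known when the genes were chosen.

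**Figure D1:**
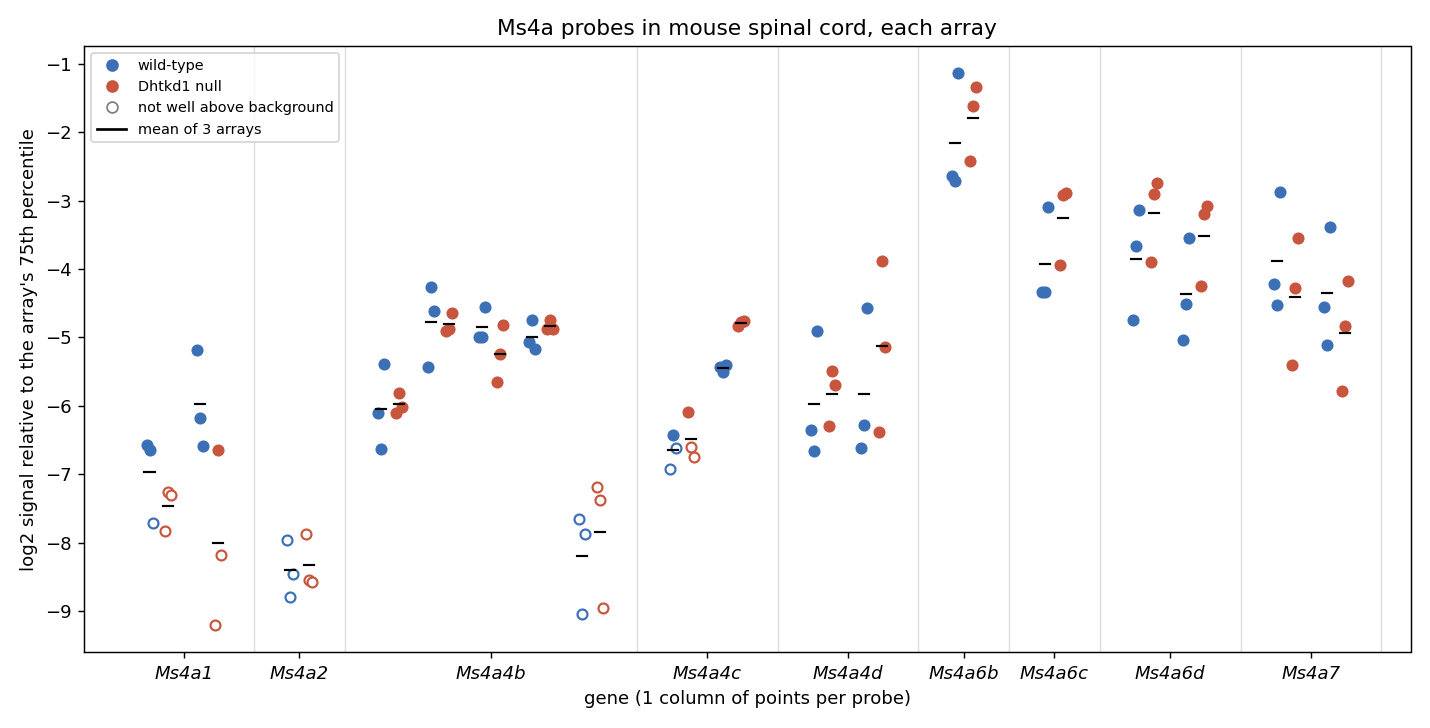
The log2 signal of each of the 18 probes, 1 column per probe, on the 3 wild-type (blue, left) and 3 Dhtkd1 null arrays (red, right), with hollow points for spots not well above background and bars for the mean of 3 arrays. Ms4a2 is hollow on all 6 arrays, the brighter Ms4a4c probe separates the genotypes with a difference of 0.66, and Ms4a6b, Ms4a6c, Ms4a6d and Ms4a7 spread widely within both genotypes.

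Ms4a4c, often listed among the transcripts that interferon induces in lymphocytes and monocytes, had the tightest separation of the genotypes. On the probe well above background on all 6 arrays the log2 signal was -5.43, -5.50 and -5.41 in wild-type 1, 2 and 3 and -4.83, -4.78 and -4.76 in null 1, 2 and 3. All null arrays lay above all wild-type arrays, and the arrays of each genotype lay close together. The means were -5.45 ± 0.05 and -4.79 ± 0.04 (SD, n = 3 each), a difference of 0.66 (SE 0.07) or 1.58-fold. In intensity units this was 22.7 ± 0.585 against 37.0 ± 1.08 (SD, n = 3 each), near the dim end of the array. With normexp background correction the difference was 0.17. That setting added an offset of 50 intensity units, more than the signal itself, which by itself draws dim signals together. It was 0.55 with quantile normalization and in the authors' value table, 0.60 with median centring, and between 0.63 and 0.68 when any 1 array was left out. On slide 1 alone, which held a single wild-type array, it was 0.71.

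The second Ms4a4c probe did not separate the genotypes. It read -6.92, -6.42 and -6.61 in the wild-type arrays and -6.09, -6.60 and -6.75 in the null arrays. The groups overlapped, and only wild-type 2 and null 1 were well above background. Its difference was 0.17. It was -0.02 with normexp correction, -0.03 without null 1 and -0.07 on slide 1 alone, a value that slide as a fixed block repeats. The signal was not well above background on the other 4 arrays.

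Ms4a1, which encodes CD20, was the member whose null arrays lay below the wild-type arrays. Its brighter probe read -5.18, -6.18 and -6.58 in the wild-type arrays and -9.20, -6.64 and -8.18 in the null arrays. Wild-type 1 was highest, null 1 lowest, and wild-type 3 and null 2 were separated by less than 0.1 on the log2 scale. The means were -5.98 ± 0.72 and -8.01 ± 1.29 (SD, n = 3 each), a difference of -2.03. The probe exceeded background clearly on 3 of 3 wild-type but on 1 of 3 null arrays, so it passed the filter through the wild-type group. No fold is given, because null 1 and null 3 were not well above background. With normexp correction, whose offset of 50 units draws dim signals together, the difference was -0.31. The dimmer probe was well above background on 2 wild-type arrays and no null array, overlapped between the genotypes and differed by -0.49.

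The other B cell genes gave no common direction beside Ms4a1. Of 15 tested, 8 had a higher and 7 a lower mean in the null arrays, with a median difference of 0.02, and none passed the adjusted threshold. At an unadjusted p under 0.05 in limma, 0 were higher and 2 lower, where 5.83% of all genes tested were higher and 3.07% lower (1249 and 659 genes). That excess of higher genes turned with the scaling: it was 826 higher and 909 lower with median centring, and 908 higher and 938 lower with quantile normalization. The 2 were Spib, a transcription factor of B cells and plasmacytoid dendritic cells, with a difference of -1.36 (SE 0.43), and Vpreb3, a chaperone of the B cell receptor, with -0.84 (SE 0.29). Spib, like Ms4a1, was well above background on 3 wild-type arrays and 1 null array and so passed the filter through the wild-type group. The chains of the B cell receptor split: Cd79b differed by -0.80 (SE 0.37) and Cd79a by 0.19 (SE 0.16).

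Ms4a2 could not be measured. Its probe read between -8.79 and -7.88 and was not well above background on any of the 6 arrays. The 2 partner chains of its receptor were detected on all 6 arrays. Fcer1a, the chain that binds IgE, read -5.31, -5.36 and -5.39 in the wild-type arrays and -5.00, -5.14 and -5.13 in the null arrays. The groups did not overlap, and the difference was 0.26 (SE 0.07; adjusted p = 0.473 in limma). Fcer1g, the signalling chain shared with other Fc receptors and carried by microglia, differed by 0.22 (SE 0.14), with overlap. Of 13 IgE receptor and mast cell genes tested, 8 had a higher and 5 a lower mean, with a median of 0.08, and Mcpt8, a protease of basophils, differed by -0.84 (SE 0.61), with 1 null array not well above background.

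Ms4a4b, a T cell member of the family, was carried by 5 probes that disagreed in direction. Its brightest probe read -5.43, -4.26 and -4.62 in the wild-type arrays and -4.91, -4.88 and -4.64 in the null arrays. Wild-type 1 was the lowest and wild-type 2 the highest, so the null arrays lay inside the wild-type range. That probe differed by -0.04 (SE 0.30), the 3 others above background by 0.06, -0.39 and 0.17, and the fifth, not above background on any array, by 0.36. All 5 overlapped between the genotypes. Of the 18 T and NK cell genes tested, 13 had a higher and 5 a lower mean in the null arrays, with a median difference of 0.22. That median ran from 0.07, with normexp correction, to 0.29 over the alternatives. At an unadjusted p under 0.05, 5 were higher and 1 lower, against 5.83% and 3.07% of all genes tested, and none passed the adjusted threshold. Among those higher were Lat, the adaptor below the T cell receptor (0.60, SE 0.11), and the granzyme Gzma (0.90, SE 0.21), both without overlap. Gzma was well above background on 1 wild-type array and 3 null arrays, so it passed the filter through the null group. The mean of the list over its genes, each centred on its own mean, ran from -0.14 to -0.07 in the wild-type arrays and from 0.08 to 0.12 in the null arrays.

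Ms4a6b, Ms4a6c and Ms4a6d shared a division of the arrays that was not the division by genotype. Ms4a6b read -2.64, -2.71 and -1.14 in the wild-type arrays and -2.42, -1.62 and -1.34 in the null arrays. Wild-type 3, null 2 and null 3 were high and wild-type 1, wild-type 2 and null 1 low, so the groups overlapped over almost their whole range. The difference was 0.37 (SE 0.51).

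Ms4a6c read -4.33, -4.34 and -3.09 in the wild-type arrays and -3.94, -2.92 and -2.89 in the null arrays. The same 3 arrays were high and the same 3 low. The difference was 0.67 (SE 0.45), or 1.59-fold.

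Ms4a6d, a member found in macrophages and microglia, was read by a pair of probes. The brighter one gave -4.75, -3.66 and -3.14 in the wild-type arrays and -3.89, -2.90 and -2.74 in the null arrays. Again wild-type 3, null 2 and null 3 were the 3 highest, although wild-type 2 lay between them and the rest. This probe differed by 0.67 (SE 0.50) and the other, which ordered the arrays alike at its ends, by 0.85. Both overlapped between the genotypes.

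Ms4a4d followed the same division. Its brighter probe read -6.61, -6.28 and -4.57 in the wild-type arrays and -6.38, -3.88 and -5.14 in the null arrays. Null 2 was highest, followed by wild-type 3 and then null 3. The difference was 0.69 (SE 0.80), and the other Ms4a4d probe, with the run shared with Ms4a4b, differed by 0.15.

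The size of these 4 differences depended on which arrays were included. Without wild-type 3 the difference was 0.88 for Ms4a6b, 1.09 for Ms4a6c, 1.03 for the brighter Ms4a6d probe and 1.32 for the brighter Ms4a4d probe. Without wild-type 2 it was 0.10 for Ms4a6b and 0.46 for Ms4a6c, without wild-type 1 it was 0.22 for Ms4a6d, and without null 2 it was 0.06 for Ms4a4d. Without null 1 it was 0.68 for Ms4a6b and 1.31 for Ms4a4d, and without null 3 it was 0.14 for Ms4a6b. The direction was the same in all 18 alternatives for these 4 probes, and also for the other Ms4a6d probe. The other Ms4a4d probe changed direction in 4 of the 18 and ran from -0.19 to 0.84. Several of these alternatives cannot change a probe's own difference, and others repeat one another. Each slide held arrays of both levels: wild-type 1 and 3 differed on slide 2, and wild-type 2 and null 1 lay below null 2 and null 3 on slide 1.

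**Figure D2:**
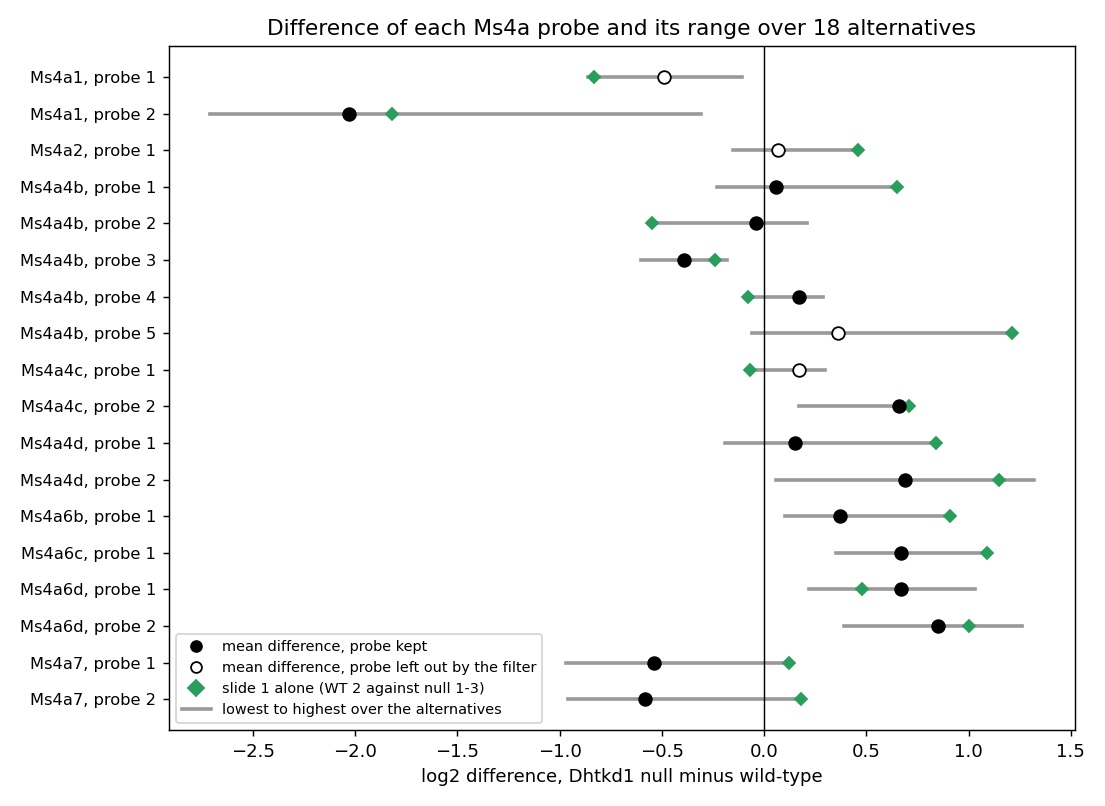
The log2 difference, Dhtkd1 null minus wild-type, of each of the 18 probes (circles, hollow where the filter left the probe out), with grey lines from the lowest to the highest value over the 18 alternatives and diamonds for slide 1 alone. The line of the brighter Ms4a4c probe runs from 0.17 to 0.71 and that of the brighter Ms4a1 probe from -2.71 to -0.31, while both Ms4a7 lines cross 0 and end with slide 1 at 0.12 and 0.18. The ends at 0.17 and -0.31 come from normexp correction with an offset of 50 units.

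The 6 arrays fell into separate sets of 3 for Ms4a6b and Ms4a6c, so no pooled correlation between these genes is given. Their RefSeq promoters (build GRCm38.p6) are shown because the genes had their high signals on the same arrays. Each is the 250 bases before the start of transcription on the plus strand, at chr19:11518309-11518558 for Ms4a6b and chr19:11469118-11469367 for Ms4a6c. Capitals mark a run of 48 bases that both hold.
Ms4a6b promoter: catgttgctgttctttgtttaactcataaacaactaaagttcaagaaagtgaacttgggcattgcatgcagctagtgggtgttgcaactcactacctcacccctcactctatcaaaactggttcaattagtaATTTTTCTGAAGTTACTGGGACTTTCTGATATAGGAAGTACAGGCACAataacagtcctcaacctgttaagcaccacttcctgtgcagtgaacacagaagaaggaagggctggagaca
Ms4a6c promoter: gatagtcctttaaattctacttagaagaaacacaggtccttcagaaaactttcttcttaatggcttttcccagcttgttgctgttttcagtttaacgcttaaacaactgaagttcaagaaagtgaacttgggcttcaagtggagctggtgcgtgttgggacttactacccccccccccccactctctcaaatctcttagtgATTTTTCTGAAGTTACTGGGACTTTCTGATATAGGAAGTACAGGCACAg

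RefSeq promoter windows were matched by symbol for 7 of the 9 members, in 8 windows. The next longest shared run was TTCTGCCTCTTAGTCAGTGG, 20 bases in the promoters of Ms4a4b and Ms4a4c, a pair of which only Ms4a4c separated the genotypes. Motifs were searched on both strands of the 250 bases. The core of the interferon response element (GAAA, 2 bases of any kind, GAAA) matched in 0 of the 8 windows and in 2.98% of all 32851 promoter windows. GAGGAAGT, a core of sites for the myeloid factor PU.1, matched in 0 of 8 and in 2.44% of all windows. AGGAAG, the wider ETS core that GAGGAAGT contains, matched in 2 of 8, Ms4a6b and Ms4a6c, and in 29.48% of all windows. A match or its absence describes only these letters in these windows.

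Ms4a7, the marker of border macrophages, had the same order of arrays within each genotype as Ms4a6b, but null 1 was lowest of all 6. Its brighter probe read -4.22, -4.53 and -2.88 in the wild-type arrays and -5.41, -4.28 and -3.55 in the null arrays. Wild-type 3 was highest, null 3 next and null 1 lowest, and the groups overlapped. The difference was -0.54 (SE 0.62), and that of the overlapping probe was -0.58. Both turned on slide 1 alone, to 0.12 and 0.18. Without wild-type 3 the difference of the brighter probe was -0.04, without null 1 it was also -0.04, and without null 3 it was -0.97.

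The mean of the 13 tested genes of border macrophages had the same highest and lowest array as Ms4a7. This mean, each gene centred on its own mean, was -0.26, -0.33 and 1.36 in the wild-type arrays and -1.20, -0.25 and 0.68 in the null arrays. Single genes of the list could depart from it: Siglec1 was lowest in wild-type 3, at -6.00, and highest in null 3, at -5.11. Ms4a7 correlated with this mean over the 6 arrays with Pearson's r of 0.991 (exact permutation p = 0.00278, two-sided; 0.0583 after Benjamini-Hochberg adjustment over 21 pairs of a member and a list). Spearman's rho was 0.943 (exact permutation p = 0.0167; adjusted 0.35). Without the 2 arrays farthest from the median of Ms4a7, wild-type 3 and null 1, r was 0.966 over 4 arrays, and with each array set against its genotype's mean it was 0.991. The adjusted values did not pass 0.05. With microglia genes r was -0.00288 (exact permutation p = 0.997) and with monocyte genes -0.427 (exact permutation p = 0.401). No other list was correlated with the members. The mean of dendritic cell and MHC class II genes was likewise highest in wild-type 3, at 0.51, and lowest in null 1, at -0.75. Serpinh1, a collagen chaperone picked from 7102 genes, had r of 0.998 with Ms4a7. The profile of Ms4a7 was therefore not particular to border macrophage genes. For Ms4a6b and Ms4a6c r with the border macrophage mean was 0.963 and 0.944 when each array was set against its genotype's mean. Over the 6 arrays as they stand r was lower. It was 0.783 for Ms4a6b (exact permutation p = 0.0583; adjusted 0.375) and 0.594 for Ms4a6c (exact permutation p = 0.262; adjusted 0.564).

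Between the genotypes, 1 of the 13 border macrophage genes had a higher and 12 a lower mean in the null arrays, with a median of -0.52 that became 0.18 on slide 1 alone, 0.06 without wild-type 3, 0.05 without null 1 and -1.04 without null 3. None had an unadjusted p under 0.05. The 3 with the smallest p were Siglec1, a sialic acid receptor of macrophages (0.40, SE 0.18), the chemokine Ccl24 (-1.04, SE 0.77) and the folate receptor Folr2 (-1.12, SE 1.01). The part of the number of border macrophages in the Ms4a7 values was not tested.

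**Figure D3:**
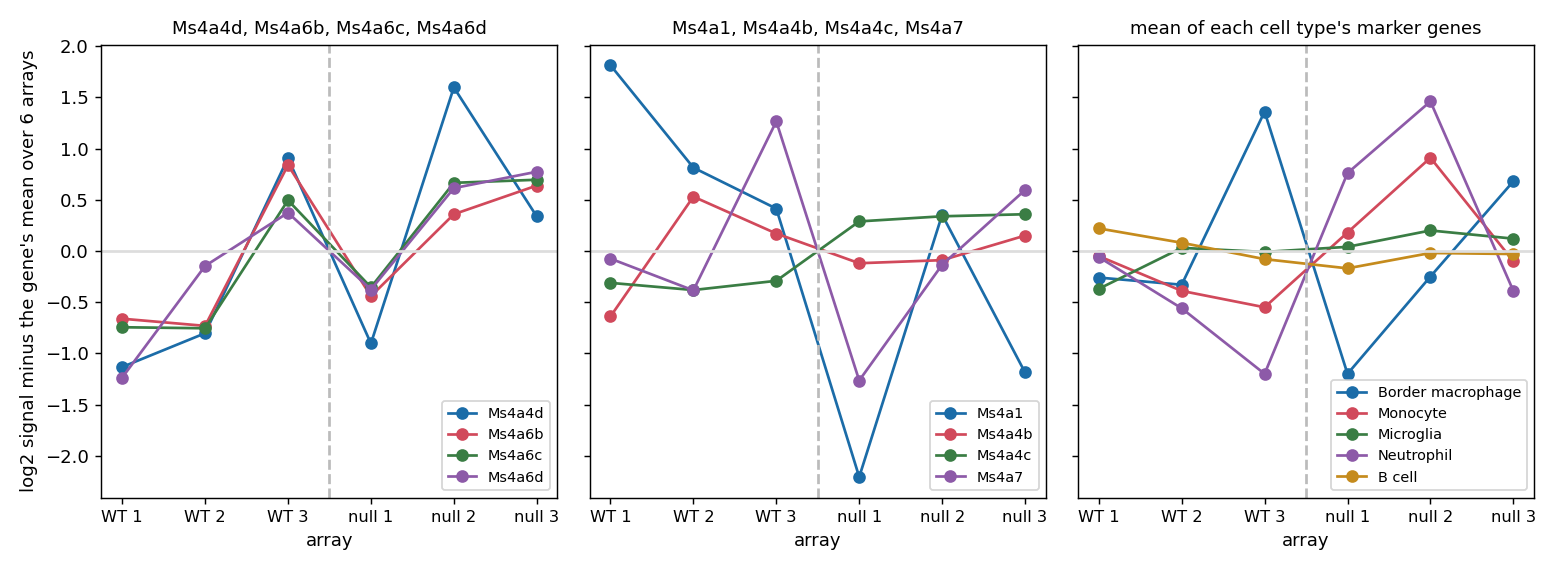
Log2 signal on each array minus the mean over the 6 arrays (3 wild-type left, 3 Dhtkd1 null right of the dashed line), for 8 Ms4a genes and for the mean of the marker genes of 5 cell types. Ms4a4d and the Ms4a6 genes are high on wild-type 3, null 2 and null 3, and Ms4a7 and the border macrophage mean share their highest array, wild-type 3, and their lowest, null 1.

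**Figure D4:**
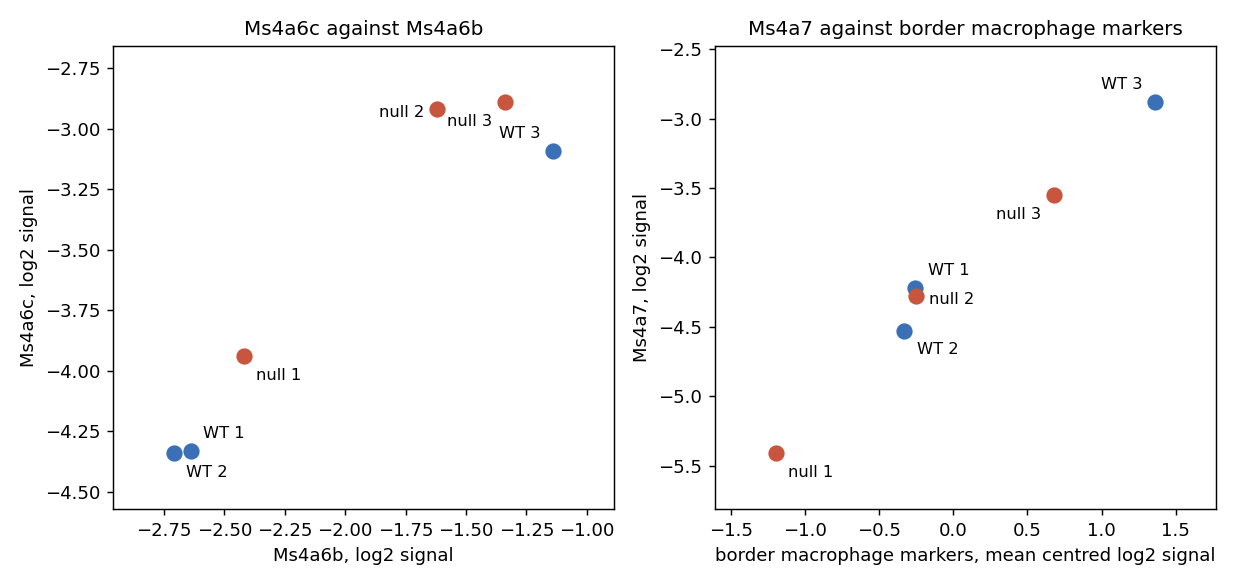
Left, log2 signal of Ms4a6c against Ms4a6b; right, log2 signal of Ms4a7 against the mean centred log2 signal of border macrophage genes; 1 point per array, wild-type blue and Dhtkd1 null red. On the left the arrays form sets of 3 that mix the genotypes, and on the right they spread along one line (r = 0.991).

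The myeloid genes beside the Ms4a6 members were set out by array as well. Of 23 microglia genes tested, 19 had a higher and 4 a lower mean in the null arrays, with a median of 0.18. At an unadjusted p under 0.05, 8 of the 23 were higher and none lower, against 5.83% and 3.07% of all genes tested, and none passed the adjusted threshold. The median was 0.07 on slide 1 alone, 0.08 without wild-type 1, 0.36 without wild-type 2 and 0.33 without wild-type 3. Ly86, a partner of a Toll-like receptor relative, differed by 0.65 (SE 0.19), the Fc receptor-like Fcrls by 0.83 (SE 0.26) and the complement chain C1qb by 0.58 (SE 0.21). The list mean ran from -0.37 to 0.03 in the wild-type and from 0.04 to 0.20 in the null arrays. All 23 were well above background on all 6 arrays.

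Monocyte genes lay mostly above, 14 of 15 with a median of 0.78. Only 1 was higher at an unadjusted p under 0.05, where 5.83% of all genes tested were. The median was 0.39 without null 2 and 0.28 with normexp correction. The gene was Ly6c2, a surface protein of inflammatory monocytes. Its near-identical copy Ly6c1 is a gene of endothelium, and how far the probe separates the copies is uncertain. The probe read 4.10, 4.05 and 4.09 in the wild-type arrays and 4.66, 5.32 and 5.32 in the null arrays. The groups did not overlap, and the difference was 1.02 (SE 0.19; adjusted p = 0.339 in limma). Cd177 and Plac8 differed by 1.22 (SE 0.51) and 1.44 (SE 0.62), both with overlap. The mean of the list was highest in null 2, at 0.91, and lowest in wild-type 3, at -0.55, where Ms4a6b was highest.

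Ms4a6d correlated with the microglia mean over the 6 arrays with r of 0.882 (exact permutation p = 0.025, two-sided; adjusted 0.262 over the 21 pairs). Spearman's rho was 0.714 (exact permutation p = 0.136; adjusted 0.408). Without wild-type 1 and null 3, the arrays farthest from the median of Ms4a6d, r was 0.542, so its size depended on those arrays. Leaving out the extreme arrays also narrows the range, which can lower r by itself. Over all 6 arrays, each set against its genotype's mean, r was 0.852. With the border macrophage mean r was 0.509 (exact permutation p = 0.297) and with the monocyte mean 0.170 (exact permutation p = 0.729). With each array set against its genotype's mean these were 0.803 and -0.282. Ms4a4d gave r of 0.646 with the microglia mean (exact permutation p = 0.125), 0.541 with the border macrophage mean (exact permutation p = 0.29) and 0.395 with the monocyte mean (exact permutation p = 0.469).

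Of 23 interferon-induced genes tested, 20 had a lower mean in the null arrays, where Ms4a4c had a higher one, and 3 had a higher mean. Their median was -0.31. At an unadjusted p under 0.05, 0 of the 23 were higher and 9 lower, against 5.83% and 3.07% of all genes tested, and none passed the adjusted threshold. Ifit3 differed by -0.44 (SE 0.09), Igtp by -0.39 (SE 0.09) and Gbp3 by -0.37 (SE 0.10), each without overlap. The list mean ran from 0.01 to 0.27 in the wild-type arrays and from -0.18 to -0.10 in the null arrays.

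Among the other relatives, 10 of 15 listed were on the array and 5 were tested, of which 4 had a higher mean in the null arrays. Ms4a3, a marker of the precursors of granulocytes and monocytes, read -4.70, -5.54 and -5.94 in the wild-type arrays and -3.65, -1.74 and -4.13 in the null arrays. All null arrays lay above all wild-type arrays, with null 2 far above the rest. The difference was 2.22 (SE 0.68; adjusted p = 0.496 in limma). Neutrophil genes had a higher mean in 16 of 16, with a median of 1.11 (0.71 without null 2). Of the 16, 4 were higher at an unadjusted p under 0.05, against 5.83% of all genes tested. Their list mean was also highest in null 2, at 1.46, and ran from -1.20 to -0.06 in the wild-type and from -0.39 to 1.46 in the null arrays. Lcn2, an iron-binding protein of granules, differed by 2.30 (SE 0.44), the receptor Csf3r by 0.43 (SE 0.13) and the granule protease Prtn3 by 1.17 (SE 0.43). The part of neutrophils or their precursors in the Ms4a3 values was not tested.

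Tmem176a and Tmem176b, relatives outside the cluster, differed by 0.39 (SE 0.15) and 0.15 (SE 0.12), with overlap. Ms4a8a differed by 0.89 (SE 0.42) and was well above background on 1 wild-type and 2 null arrays. Ms4a19 differed by -0.12 (SE 0.11). Ms4a5, Ms4a10, Ms4a13, Ms4a14 and Ms4a20 did not pass the filter.

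The genes around the cluster were read for comparison by position. Within 1 Mb of the outermost Ms4a probes, 49 of 75 genes outside the family were tested, 35 with a higher and 14 with a lower mean, and a median of 0.08. At an unadjusted p under 0.05, 6 were higher and none lower, against 5.83% and 3.07% of all genes tested, shares that turned with the scaling. Vwce, a secreted protein with von Willebrand factor domains, read -3.52, -3.90 and -3.75 in the wild-type and -3.13, -3.04 and -3.12 in the null arrays. The groups did not overlap, and the difference was 0.62 (SE 0.11; adjusted p = 0.333 in limma). The olfactory receptor gene Olfr1437 differed by 0.28 (SE 0.08) and the unnamed transcript NAP057251-1 by 0.61 (SE 0.19); the latter was well above background on 1 wild-type array and 3 null arrays, so it passed the filter through the null group.

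The genes most like each member over the 6 arrays were taken from 7102 genes well above background on all of them with an SD of at least 0.2. With so few arrays and so many genes, a high r is a description of these arrays. For Ms4a4c it rests on arrays set apart by genotype, and for Ms4a6b and Ms4a6c on the sets of 3 arrays described above. For Ms4a4c they were Fam83d (r = 0.991), Cyp4f15 (0.991) and Plin4 (0.990), which also separated the genotypes, with differences of 0.89, 1.30 and 2.69. For Ms4a7 they were Serpinh1, a collagen chaperone (0.998), Upb1 (0.998) and the endocytic adaptor Dab2 (0.997). For Ms4a6b they were Gpr4 (0.995), the transcript AK044879 (0.984) and the myeloid lectin Clec4a3 (0.983). For Ms4a6c they were the transcript ENSMUST00000138442 (0.994), Batf (0.994) and Id1 (0.991). For Ms4a6d they were P2ry6, a nucleotide receptor of microglia (0.977), Ripk4 (0.971) and Ptgs1 (0.953). For Ms4a4d they were Myl12a (0.973), Spns3 (0.970) and the oxidase subunit Cyba (0.964). For Ms4a4b they were the transcript AK086521 (0.993), Rlbp1 (0.983) and Cd44 (0.975). Dab2 shows the order of arrays of Ms4a7: it read -1.03, -1.17 and -0.30 in the wild-type arrays and -1.58, -1.10 and -0.67 in the null arrays.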

How the data were processed

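The authors deposited the scanner output of 6 Agilent 1-colour arrays, 1 per sample, written by Feature Extraction 10.7.3.1 per the file headers, and a table of processed log2 values whose scaling is not given in the sources used here. The deposited processed intensity per spot is already corrected for background, per the file headers. Here log2 intensity was taken minus each array's 75th percentile over 43379 non-control spots, outlier spots were left out and spots of a probe averaged (41174 probes). A probe was kept when well above background on at least 3 of 6 arrays, and a gene was its brightest kept probe. The fit was limma 3.58.1 (R 4.3.3) with empirical Bayes, two-sided, adjusted by Benjamini-Hochberg over 21439 genes, and it was tested on simulated data. Probes were named through RefSeq tables (27668 by accession, 5589 already current, 471 by synonym, 7446 left with the file's name).

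The members and the gene lists were chosen with earlier results of these data known. Named genes were all members and other Ms4a genes, the 3 genes of smallest p in each list, the receptor chains Fcer1a, Fcer1g, Cd79a and Cd79b, the 3 genes most like each member, and Dhtkd1; some genes that this rule names are not reported here. The exact test of 3 against 3 arrays cannot go below p = 0.1, so it was not used for the genotypes, and the number of arrays limits the precision. Alternatives changed the scaling, background correction (normexp with an offset of 50 units), filter, outlier spots, probe choice, variance model, slide and replicate block, used the authors' value table, or left out 1 array. The filter, random block, replicate block and variance settings leave a probe's own difference unchanged. Slide as a fixed block gives a probe the same difference as slide 1 alone. The value table's columns correlated with the log2 signal of the same sample's array at 0.99971 or more and had a median of 7.22 each. For each of the 18 member probes the value table gave the same rounded difference as quantile normalization. That pair of alternatives therefore repeats itself for the members. The method the authors used is not stated in the sources used here.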

Additional observations from a re-analysis of the deposited data

How the results depend on the processing

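Over all genes the count of 0 past the adjusted threshold in limma (1908 at an unadjusted p under 0.05) became 1, Cyp4f15, with quantile normalization, median centring, normexp background, the authors' value table or a filter on all 6 arrays, and 4 with a trended robust variance (Cyp4f15, Gdpd3, Plin4 and Stk25). It lay between 0 and 2 when 1 array was left out, with Scgb3a1 without null 1 and 4930520O04Rik and TC1634701 without null 2. With the replicate block it was 0 (1842 at an unadjusted p under 0.05); deviations of same-numbered arrays correlated at -0.0159, -0.106 and 0.329, so the numbers were not taken to pair the samples, and the block changed no call. Genes higher at an unadjusted p under 0.05 were 1249, but 826 with median centring, 829 without null 2 and 1905 without wild-type 1; genes lower were 659, but 414 without null 2 and 390 without null 3. The cause was not tested.

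Signals of Ms4a1, Ms4a2 and the second Ms4a4c probe lay at or below the background limit on some or all arrays, which limits what can be read from them. The median of adipocyte genes turned from 0.71 to -0.66 on slide 1 alone.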

Other observations

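Other marker lists differed between the arrays beside the Ms4a genes, and none of their genes passed the adjusted threshold in limma. Of 9 dendritic cell and MHC class II genes tested, 3 had a higher and 6 a lower mean in the null arrays, with a median of -0.67 that was -0.09 on slide 1 alone, -0.13 without null 1, -0.34 without wild-type 3, -1.03 without wild-type 2 and -1.06 without null 3. H2-Eb1, H2-Aa and H2-Ab1, chains that present antigen to T cells, differed by -0.74 (SE 0.43), -0.92 (SE 0.63) and -0.83 (SE 0.58). Null 1 had the lowest value of all 3 chains, as it had of Ms4a7.

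All 8 red cell genes tested had a higher mean in the null arrays, with a median of 0.73 that was 1.16 without wild-type 1 and 0.48 without wild-type 3. Of the 8, 1 was well above background on 1 wild-type array and 3 null arrays, so it passed the filter through the null group. Alas2, the first enzyme of haem synthesis in red cells, differed by 0.73 (SE 0.24), and Rhag, well above background on 2 arrays of each genotype, by 0.91 (SE 0.45). The globin listed as Hbb-b1, read on a probe named Hbb-bt, differed by 0.43 (SE 0.23). All 9 adipocyte genes tested had a higher mean, with a median of 0.71: Lipe, a lipase, differed by 0.27 (SE 0.08), Ucp1 by 1.78 (SE 1.17) and Retn by 0.71 (SE 0.70). Without null 2 that median was -0.03, without wild-type 1 it was 0.22, without wild-type 2 it was 1.22 and without null 3 it was 1.33. The adipocyte mean was highest in null 2, at 1.63, and lowest in wild-type 1, at -1.31. Of the 17 spinal cord genes, 7 had a higher and 10 a lower mean, with a median of -0.02, and the 3 with the smallest p were the astrocyte water channel Aqp4 (-0.33, SE 0.14), the synaptic protein Syt1 (0.37, SE 0.16) and Hoxb8 (0.74, SE 0.36).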
